A study of Ovis aries and Mus musculus with 20 samples.

Results

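Adipocyte progenitors are stromal cells of fat that can divide and turn into lipid-storing adipocytes. The 10 genes described here mark these cells or act in them: *Pdgfra*, *Pdgfrb*, *Dpp4*, *Pi16*, *Ly6a*, *Cd34*, *Dcn*, *Zfp423*, *Thy1* and *F3*. They were chosen by name, out of 20621 protein-coding genes with a value on the 19 mouse autosomes, and each of the 10 lies on a different chromosome. All 10 had a value. The samples were 2 Hi-C libraries of the inguinal fat pad (iWAT, white fat under the skin) from adult female Kunming mice aged 32 weeks that had been fasted before they were killed, and each library was made from a pool of mice. The study also holds libraries of sheep visceral fat, which were not used here.

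In an intact tissue the *Pdgfra* and *Dpp4* positive progenitors sit around vessels and in the connective sheets between fat lobules, apart from mature adipocytes. For Hi-C, chromatin is fixed, cut and ligated so that DNA ends that lay close together are read as a pair. Regions of open, active chromatin tend to touch each other and form compartment A, and silent regions form compartment B. The genome was divided into bins of 20 kb, and the A-B index measures how much more a bin touches the A regions of its chromosome than the B regions, so a value above 0 stands for A and a value below 0 for B. Within compartments, topologically associating domains (TADs) are stretches whose loci contact each other more than their surroundings. The nuclei came from the layer that contained adipocytes, after the tissue had been spun, and the index is an average over all nuclei of a pool. No RNA of these mice was analysed, so neither the presence of progenitors nor the expression of any gene could be checked against markers. The values below describe where the genes lie in the folded genome of the nuclei of that layer, not of the whole tissue. They do not show how active the genes are in progenitors.

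Of the 10 progenitor genes, 9 started in compartment A in both pools and 1, *Dpp4*, started just inside compartment B. Of all protein-coding genes, 75.6% started in A and 21.7% in B in both pools, so 9 of 10 is close to the background. The median index at the start was 3.53 over the 10 genes in pool 1 and 3.16 in pool 2, against 3.47 and 3.06 over all protein-coding genes. The mean index of 9 of the 10 lay between the lower and the upper quartile of all genes (0.27 and 4.66). The progenitor genes were thus spread through the middle of the range, from the 21.6th percentile for *Dpp4* to the 67.6th for *Thy1*. With 1 group of 2 pools there is no second condition to compare with, and no test was made.

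**Figure D1:**
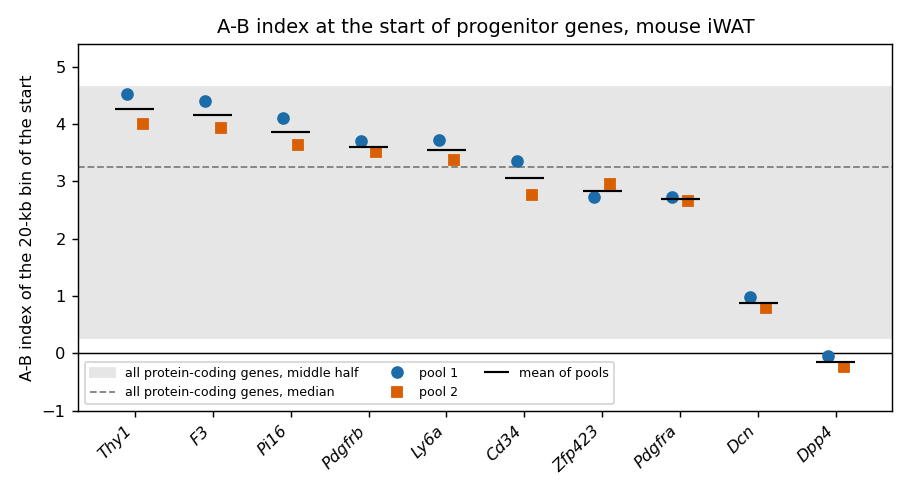
A-B index of the 20-kb bin that holds the start of each progenitor gene (vertical axis, no unit) in pool 1 (circles) and pool 2 (squares), with the mean of the pools as a bar; the grey band runs from the lower to the upper quartile of all protein-coding genes and the dashed line is their median. *Thy1* is highest at 4.26 and *Dpp4* lowest at -0.14, and the step of 1.81 below *Pdgfra* is the largest between neighbours.

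Promoters are shown for 4 of the genes because they span the range of the index and of CpG content; capitals mark CpG dinucleotides. Each runs 5′ to 3′ from 250 bases before to 50 after the start of the Ensembl canonical transcript in GRCm39. *Dpp4* had the lowest index, *Dcn* the next lowest, *Zfp423* a middle one and *F3* a high one.
Dpp4, chr2:62242526-62242825, minus strand: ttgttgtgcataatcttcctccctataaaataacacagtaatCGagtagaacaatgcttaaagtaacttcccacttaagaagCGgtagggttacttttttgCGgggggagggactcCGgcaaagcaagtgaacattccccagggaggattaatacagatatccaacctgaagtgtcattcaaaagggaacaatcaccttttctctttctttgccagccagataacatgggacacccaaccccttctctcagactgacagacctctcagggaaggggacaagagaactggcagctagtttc
Dcn, chr10:97315025-97315324, plus strand: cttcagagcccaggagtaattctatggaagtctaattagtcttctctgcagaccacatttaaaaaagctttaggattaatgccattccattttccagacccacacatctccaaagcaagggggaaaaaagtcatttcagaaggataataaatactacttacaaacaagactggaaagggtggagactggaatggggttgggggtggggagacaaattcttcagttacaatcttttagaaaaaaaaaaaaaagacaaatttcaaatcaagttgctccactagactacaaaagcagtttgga
Zfp423, chr8:88687240-88687539, minus strand: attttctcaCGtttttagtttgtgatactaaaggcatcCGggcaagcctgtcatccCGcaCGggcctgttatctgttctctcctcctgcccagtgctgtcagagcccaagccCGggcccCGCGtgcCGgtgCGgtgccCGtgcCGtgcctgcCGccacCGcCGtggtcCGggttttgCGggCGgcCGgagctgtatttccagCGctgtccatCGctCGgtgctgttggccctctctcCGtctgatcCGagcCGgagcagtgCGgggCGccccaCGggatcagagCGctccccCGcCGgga
F3, chr3:121516936-121517235, plus strand: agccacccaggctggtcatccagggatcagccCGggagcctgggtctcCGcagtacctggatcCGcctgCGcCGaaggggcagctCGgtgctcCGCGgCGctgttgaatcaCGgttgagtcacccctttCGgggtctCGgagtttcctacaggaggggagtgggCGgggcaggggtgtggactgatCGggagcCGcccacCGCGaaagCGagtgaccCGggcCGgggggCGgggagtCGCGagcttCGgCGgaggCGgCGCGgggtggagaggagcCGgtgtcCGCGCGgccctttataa

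CpG content of the promoter did not follow the order of the index. The *F3* and *Zfp423* windows held 32 and 30 CpG, that of *Dpp4* 4 and that of *Dcn* 0, while the other 6 held 1 to 7 and the median over 20621 promoters was 11. *Thy1* and *Pi16*, at the top of the index, had 6 and 2 CpG. The letters GGGCGG, the core of the GC box, were found on either strand in *Zfp423* and *F3* only, against 43.1% of all promoters. TATAAA was found in *Dpp4* and *F3* (13.3% of all promoters) and CCAAT in *Pdgfrb*, *Ly6a* and *Thy1* (39.5%). Such matches describe the letters in these windows and are not evidence that a factor binds there.

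*Pdgfra* and *Pdgfrb* encode the receptor tyrosine kinases for platelet-derived growth factors, and both lay in A over their whole length. *Pdgfra* (ENSMUSG00000029231.17, chr5:75311994-75358876, plus strand) had an index at its start of 2.72 in pool 1 and 2.66 in pool 2, or 2.69 ± 0.0456 (SD, *n* = 2 pools). In the last of its 3 bins the index was lower, at 2.30 and 2.08. *Pdgfrb* (ENSMUSG00000024620.14, chr18:61178212-61218133, plus strand) was at 3.70 and 3.51 at its start, with 3.61 ± 0.133 as the mean. The pools of the 2 receptor genes did not overlap, and *Pdgfrb* was the higher in both.

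The surroundings of the receptors also differed. Within 500 kb on either side of the start all 51 bins were in A in both pools for each receptor, but the mean was 2.46 and 2.08 around *Pdgfra* (4 other protein-coding genes) and 4.16 and 3.74 around *Pdgfrb* (17 other genes). Around *Pdgfra* the index passed from a high of 3.95 to a low of 0.84. *Pdgfrb* was the only member whose start lay below its surroundings in both pools, by 0.46 in pool 1 and 0.22 in pool 2, which 24.3% of all genes did. Each receptor belongs to a cluster of related kinase genes. *Csf1r*, the receptor that macrophages need to grow, started 51.5 kb from *Pdgfrb* in the same TAD, at 4.24 and 3.61. *Kit*, the stem cell factor receptor, started 424 kb from *Pdgfra* in the next TAD, at 1.42 and 1.24. *Kdr*, the VEGF receptor of endothelium, lay 828 kb away in the TAD after that, at 3.03 and 2.16. *Kit* and *Kdr* were picked for this comparison after their values were seen.

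The TAD of *Pdgfra* (chr5:74500001-75380000, 880 kb) ended 68.0 kb past its start, between *Pdgfra* and *Kit*, and its other genes included *Gsx2*, *Chic2*, *Lnx1* and *Fip1l1*, at a mean index of 3.34, 3.95, 3.13 and 3.59. Among the 19299 genes on other chromosomes, the index profile over 51 bins most like that of *Pdgfra* belonged to *Ube2q2l* (Pearson's *r* = 0.959), *Cd109* (0.949) and *Adra2a* (0.949), a likeness of shape over bins that share neighbours and so carry partly the same contacts.

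*Dpp4* encodes a cell-surface peptidase that cleaves incretin hormones and marks progenitors of the interstitium, and it was the only member outside A. At the start of *Dpp4* (ENSMUSG00000035000.10, chr2:62159798-62242576, minus strand) the index was -0.05 in pool 1 and -0.24 in pool 2, or -0.14 ± 0.133 (SD, *n* = 2). Both values lie near 0. Subtracting the genome-wide median of each pool, which was below 0, moved the mean to 0.13, so that the gene then started in A. Subtracting the median of its chromosome instead gave -0.17, and it stayed in B. The last of its 6 bins was at -1.65 and -1.79, and 5 of the 6 were in B in both pools. The index thus dropped from the start of the gene to its end. In the second bin the pools differed in sign, with 0.17 and -0.66.

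*Dpp4* lay on the flank of a narrow rise in a B region. Of the 51 bins within 500 kb, 40 were in B in both pools and 4 in A in both, and the mean was -2.04 and -2.02. Over these bins the index ran from -4.43 to 0.73, and the start of *Dpp4* stood 1.99 and 1.78 above the mean. The stretch of bins in B in both pools that held the start ended 37.4 kb upstream of it. Further upstream, all bins from 260 to 500 kb were again in B in both pools. The genes of its TAD (chr2:62160001-62540000, 380 kb) had an index near 0. *Gcg*, which encodes the incretin and glucagon precursor, was at 0.19 and 0.10, and *Ifih1*, a sensor of viral RNA, at 0.95 and 0.40. *Fap*, a peptidase of fibroblasts related to *Dpp4*, was at 0.72 and -0.15, so its pools differed in sign. *Gca* also differed in sign, at 0.36 and -0.36. The last 203 bases of *Dpp4* lay beyond the end of this TAD, in the boundary bin, and it was the only member with a TAD that did not hold it whole; 92.1% of all genes with a TAD were held whole.

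**Figure D2:**
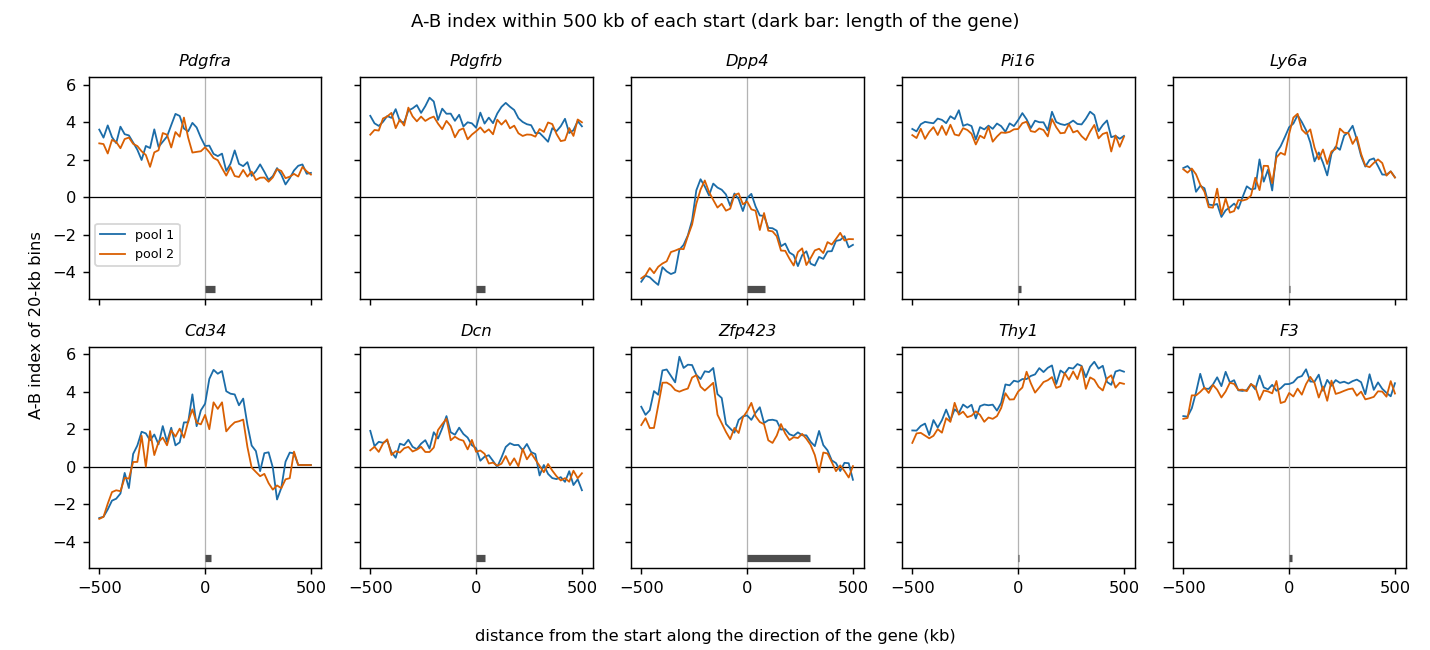
A-B index of 20-kb bins (vertical axis, no unit) within 500 kb of the start of each progenitor gene (horizontal axis in kb, in the direction of the gene), in pool 1 (blue) and pool 2 (orange); dark bars give the length of the gene. The index stays above 0 in all 51 bins for *Pdgfra*, *Pdgfrb*, *Pi16*, *Thy1* and *F3*, while *Dpp4* sits on the side of a rise that reaches 0.73 in a B region.

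*Pi16*, which encodes a secreted peptidase inhibitor and marks the same interstitial progenitors as *Dpp4*, lay in A, with its start at the 60.2nd percentile of all genes. Its index (ENSMUSG00000024011.19, chr17:29536654-29549567, plus strand) was 4.10 and 3.63 at the start, or 3.87 ± 0.334 (SD, *n* = 2). All 51 bins around it were in A in both pools, and the stretch of such bins that held it ran over 7240 kb and 219 gene starts, the longest of any member. Its TAD (chr17:28840001-29820000) held 23 other genes, all of them starting in A in both pools. The 4 nearest, *Mtch1*, *Fgd2*, *BC004004* and *Ppil1*, were at a mean of 4.09, 4.09, 3.71 and 3.71. *Pi16* and *Dpp4*, used together to label the same cells, thus stood at rank 3 and rank 10 in the order of the 10 starts.

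*Ly6a* (Sca-1), *Cd34* and *Thy1* (CD90) encode surface proteins used to sort stromal progenitors, and all 3 started in A. *Ly6a* (ENSMUSG00000075602.12, chr15:74863840-74869880, minus strand) was at 3.73 and 3.37, or 3.55 ± 0.251 (SD, *n* = 2). It lay near the top of a peak of the index, 2.14 and 1.75 above its 500-kb surroundings. The surroundings held 41 bins in A and 8 in B in both pools. Over these bins the index peaked at 4.41 at 40 kb past the start in the direction of the gene, in the bin of *Ly6e*, fell to 1.46 at 180 kb and rose again to 3.44 at 280 kb. On the other side it passed below 0, to -0.99. Of 14 Ly6 genes within 1 Mb, 12 started in A and 2 in B in both pools (75.6% in A over all genes). The 14 ranged from *Ly6e* at 4.41 down to *Ly6f* at -0.69. The nearest, *Ly6i*, was at 3.92 and 4.24, *Ly6m* at 2.91 and 3.61 and *Ly6c1* at 2.36 and 2.11. *Ly6g2* lay in B, at -0.00379 and -0.186. Except for *Ly6i*, *Ly6e*, *Ly6m*, *Ly6c1* and *Ly6g2*, the Ly6 genes were looked up after values had been seen. Read pairs with a mapping quality under 30 had been removed, and how much of the reads of these related genes this took was not analysed here.

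*Cd34* (ENSMUSG00000016494.11, chr1:194621029-194647172, plus strand) was at 3.36 and 2.76 at its start, or 3.06 ± 0.423 (SD, *n* = 2), the largest spread between pools among the 10 starts. Its second bin differed more, with 4.68 in pool 1 and 1.99 in pool 2. That gap of 2.69 is larger than in 99.9% of all bins, so the index of the *Cd34* body is poorly fixed, although both pools put it in A. The start stood 2.11 and 2.08 above its surroundings, in a stretch of 480 kb in A in both pools, the shortest of the 9 members in A. *Cd34* lies near the end of chromosome 1, 1241 kb past the last TAD there, and is the only member in no TAD; 93.9% of all genes start in one. Of its 51 surrounding bins, 4 hold no known sequence in GRCm39 yet carry a value, and without them the mean of the surroundings was 1.35 and 0.73 in place of 1.25 and 0.68.

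*Thy1* (ENSMUSG00000032011.7, chr9:43954332-43959880, plus strand) had the highest index of the 10, with 4.53 and 4.00, or 4.26 ± 0.371 (SD, *n* = 2). All 51 bins around it were in A, with a low of 1.60 upstream and a high of 5.36 downstream. It lay 74.3 kb from the start of its TAD (chr9:43880001-44300000), whose mean was 4.95 and 4.43 and whose 18 other genes all started in A. Its neighbours *Usp2*, *Mfrp*, *C1qtnf5* and *Gm49380* were at a mean of 4.45, 4.64, 4.64 and 4.43. *Mfrp* and *C1qtnf5* start in the same bin and so share a value.

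*F3* encodes tissue factor (CD142), the starter of clotting and a marker of stromal cells reported to restrain adipogenesis. Its index (ENSMUSG00000028128.15, chr3:121516610-121528820, plus strand) was 4.41 and 3.93, or 4.17 ± 0.338 (SD, *n* = 2). This value differed from that of *Thy1* by 0.10, less than the spread between pools, although *Thy1* was the higher in both pools. *F3* hardly stood out from its surroundings, being 0.09 above them in pool 1 and 0.04 below them in pool 2. The surroundings were all in A, at 4.32 and 3.97, and held 7 other genes. In its TAD (chr3:120940001-121620000) *Abcd3*, *Slc44a3*, *Cnn3* and *Alg14* were at a mean of 4.66, 4.41, 4.48 and 4.47.

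*Dcn* encodes decorin, a small leucine-rich proteoglycan that coats collagen fibrils and is made by fibroblasts and progenitors alike. It had the lowest index of the members in A. *Dcn* (ENSMUSG00000019929.18, chr10:97315275-97358155, plus strand) was at 0.98 and 0.79 at the start, or 0.88 ± 0.134 (SD, *n* = 2), and between 0.31 and 0.86 in its other 2 bins. Its surroundings were weakly A too, at 0.79 and 0.63, with 39 of 51 bins in A and 8 in B in both pools, and the stretch in A in both pools ended 84.7 kb past its start, at the bin of *Lum*. By the sign of the mean of the pools it went on to 285 kb. *Dcn* shares a 380-kb TAD (chr10:97180001-97560000) with the related genes *Lum*, *Kera* and *Epyc*, which encode further proteoglycans of collagen. *Lum* was at -0.02 and 0.04, *Kera* at 1.05 and 0.56, and *Epyc* at 1.25 and 0.08. The relatives on other chromosomes were higher, with *Aspn*, *Omd* and *Ogn* on chromosome 13 at a mean of 2.49, 2.56 and 2.67, and *Prelp* and *Fmod* on chromosome 1 at 3.90 and 4.07. No value was given for *Bgn*, which lies on the X chromosome.

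*Zfp423* encodes a zinc finger transcription factor that commits cells to the adipocyte lineage, and it is by far the longest member at 299 kb. *Zfp423* (ENSMUSG00000045333.17, chr8:88388438-88687289, minus strand) was at 2.73 and 2.95 at its start, or 2.84 ± 0.156 (SD, *n* = 2). All of its 16 bins were in A in both pools. As the mean of the pools, the index was 2.84 in the first bin, 2.95 in the second and 1.24 in the last. It was the only member whose start was higher in pool 2, and no other protein-coding gene started in its TAD (chr8:88320001-88820000). Upstream the index rose to 5.08. Of the regulators that act beside it, *Ebf1*, *Ebf2*, *Ebf3*, *Zfp521* and *Prdm16* all started in A in both pools (75.6% of all genes). The regulators, in this order, were at a mean of 0.26, 2.82, 4.56, 1.81 and 3.26.

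The order of the 10 starts by mean index was *Thy1*, *F3*, *Pi16*, *Pdgfrb*, *Ly6a*, *Cd34*, *Zfp423*, *Pdgfra*, *Dcn* and *Dpp4*. In 7 of the 9 steps between neighbours both pools gave the same order. In the other 2, *Pdgfrb* above *Ly6a* and *Cd34* above *Zfp423*, the pools gave opposite orders. The ranges of the pools overlapped in 5 steps, these 2 and those from *Thy1* to *F3*, *F3* to *Pi16* and *Pi16* to *Pdgfrb*. Only in the 2 steps with opposite orders did the order of the neighbours depend on the pool. Both genes of a step were read in the same pools, so overlap of the ranges alone does not show that neighbours were alike. The steps from *Pdgfra* to *Dcn* (1.81) and from *Dcn* to *Dpp4* (1.02) were far larger than the spread between pools, whose SD was 0.0456 to 0.423. Pool 1 was higher at 9 of the 10 starts, and at 70.9% of all genes.

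Over their bodies, 9 of the 10 genes were in A in every bin in both pools, against 72.0% of all genes, and the exception was again *Dpp4*. For 7 of the 10 the start stood above the surroundings in both pools (62.1% of all genes); the others were *Pdgfrb*, *Zfp423* and *F3*. The mean rise was 2.09 for *Cd34*, 1.94 for *Ly6a* and 1.88 for *Dpp4*, and at most 0.49 for the other 7. Of all 123133 bins, 44.8% were in A in both pools. Surroundings wholly in A were seen for 5 of 10 genes and for 37.8% of all genes. The number of other protein-coding starts within 500 kb ran from 4 (*Pdgfra*, *Cd34* and *Dcn*) to 27 (*Ly6a*), with a median of 7 against 16 over all genes.

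The members also differed in the length of the stretch around their start in which every bin had the same sign in both pools. For the 9 members in A it was 480 kb (*Cd34*), 760 kb (*Ly6a*), 1200 kb (*Zfp423*), 1980 kb (*Pdgfrb*), 2400 kb (*F3*), 4040 kb (*Pdgfra*), 4540 kb (*Dcn*), 5460 kb (*Thy1*) and 7240 kb (*Pi16*). *Dcn*, with its low index, thus lay in a longer stretch than *Cd34*, *Ly6a* or *F3*. The *Cd34* stretch held 3 gene starts and that of *Thy1* held 81. For *Dpp4* it was 40 kb, since the next bin of the gene differed in sign between pools. When the sign of the mean of the pools was used in place of both pools, the stretches were 640 kb for *Dpp4*, 600 kb for *Cd34*, 5000 kb for *Pdgfra* and 11900 kb for *Pi16*, and for the other 6 they ran from 780 kb (*Ly6a*) to 5800 kb (*Thy1*).

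The 9 TADs that held a member were 380 to 1340 kb long, with a median of 500 kb, against 540 kb over all 2979 TADs of the merged map and 680 kb for the TADs of all genes. None of the 10 starts lay within 40 kb of a TAD end, where 19.6% of all genes start. The nearest was *Pdgfra* at 68.0 kb. The median distance was 118 kb, shorter than the 142 kb over all genes. As the TADs were called on 1 map that merged both pools, they have no replicate check. The TAD of *Ly6a* was the longest, and its mean index of 0.90 and 1.10 was far below that of the gene.

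**Figure D3:**
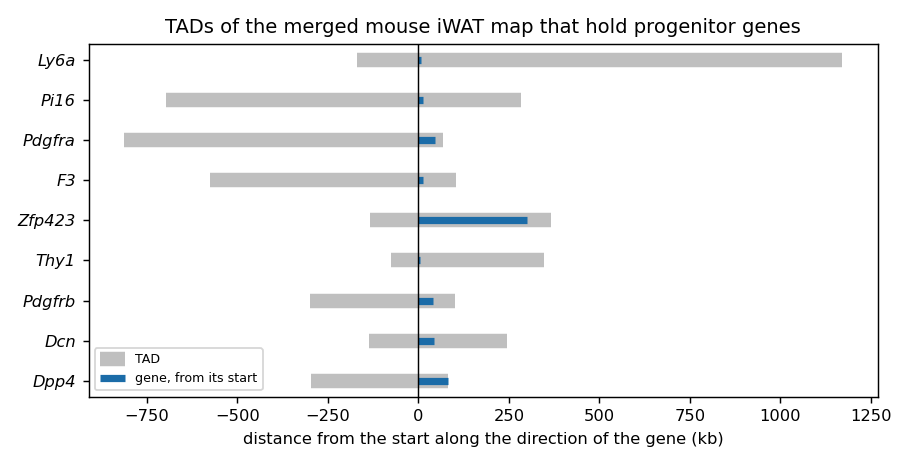
TADs of the merged iWAT map (grey) that hold a progenitor gene, drawn in kb from the start of the gene (blue, to its full length) in its own direction. The TADs run from 380 kb for *Dpp4* and *Dcn* to 1340 kb for *Ly6a*, and the bar of *Dpp4* reaches the end of its TAD; *Cd34* has no TAD and is left out.

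By base composition the bins of the starts lay above the median of the genome, except for those of *Cd34* and *Dcn*. Their GC content ran from 38.8% (*Dcn*) and 40.5% (*Cd34*) to 53.3% (*Pdgfrb*). The median of the members was 47.9%. That of all bins of known sequence, whether or not they hold a gene start, was 41.4%. *Cd34* was in A at a GC content below that median, and *Dpp4* was at the border of B at 43.6%, above it. The bins held 41 to 56 sites for MboI (GATC), the enzyme that cut the chromatin, against a median of 49, so no member lay in a bin with few cutting sites.

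Other markers of the same cells were looked up by lists. Of 10 further markers of *Dpp4*-positive progenitors, 7 started in A and 3 in B in both pools (75.6% in A over all genes), with a median mean index of 1.67. The lowest were *Wnt2*, a signalling ligand, at -1.61 and *Pcolce2*, which helps process collagen, at -1.27, and the highest *Cd248* at 3.44 and *Efhd1* at 4.88. Of 7 further markers of *F3*-positive cells, 5 were in A and 2 in B, with *Igfbp3*, a carrier of insulin-like growth factors, at -3.56 and *Meox2* at -0.43 at the low end and *Abcg1* at 2.84 and *Clec11a* at 6.24 at the high end. Of the 4 PDGF ligands, *Pdgfa*, *Pdgfb* and *Pdgfc* started in A at 3.85, 3.03 and 1.37, while *Pdgfd* was in B at -2.27.

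Genes of later and of other cells give the range in which these values stand. Over all protein-coding genes 75.6% started in A in both pools, and the median of the mean index was 3.26. All 7 markers of committed preadipocytes started in A, with a median of 3.96. The lowest were *Dlk1* at 1.26 and *Vcam1* at 2.96. *Pparg*, the master regulator of adipocytes, was at 3.97 and *Icam1* highest at 5.76. All 10 mature adipocyte markers started in A as well, with a median of 4.80. They ranged from *Cd36* at 0.92 and *Adipoq* at 2.73 to *Lipe* at 7.96 and *Pnpla2*, which starts the breakdown of stored fat, at 9.49. *Fabp4*, at 3.61, is on this list and on that of committed preadipocytes. Of 10 stromal matrix and surface genes 8 were in A, among them *Col1a1* at 4.74 and *Eng* at 7.38, *Col3a1* was in B at -0.96 and *Nt5e* had different signs in the pools (0.13 and -0.53).

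Of 8 mural cell markers 7 were in A (median 3.67), of 8 endothelial markers 7 (2.55), of 7 macrophage markers 5 (3.14), of 8 lymphocyte markers 6 (4.18) and of 5 mesothelial markers 3 (0.85), where 75.6% of all genes started in A. *Mcam* and *Tagln* of mural cells were at 4.74 and 4.99, and *Vwf* and *Pecam1* of endothelium at 4.74 and 5.31. At the low end stood *Rgs5* of pericytes at -0.32, *Tek* of endothelium at -0.54, *Adgre1* of macrophages at -1.42 and *Ms4a1* of B cells at -1.79. Of 8 neuronal markers 3 were in A and 5 in B, with a median of -0.95 and a range from *Syt1* at -4.40 to *Slc17a7* at 8.23. These lists are short, their genes were chosen by name, and no difference between them was tested.

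**Figure D4:**
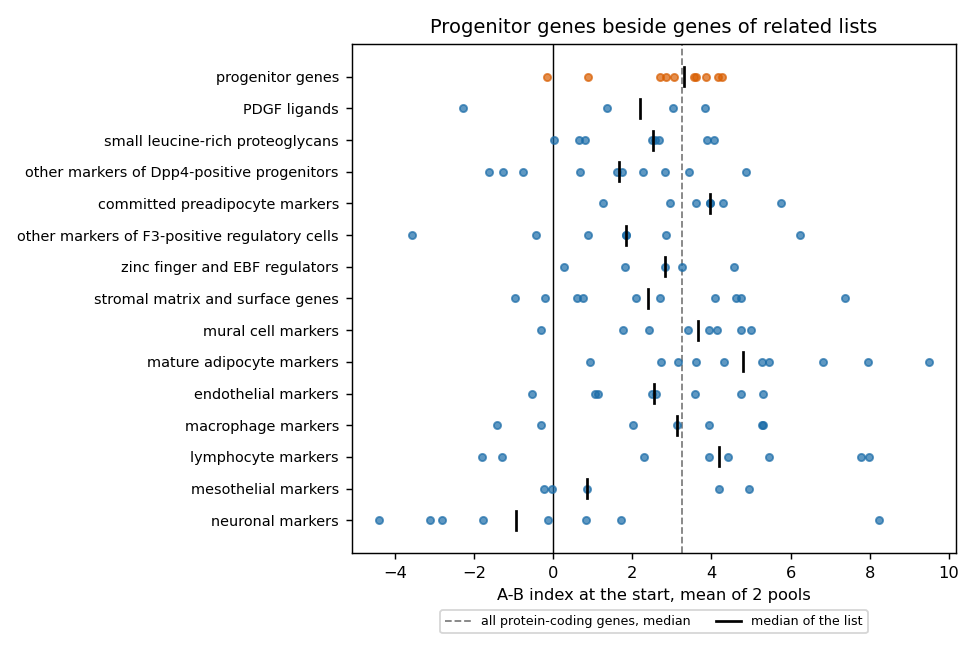
A-B index at the start, as the mean of 2 pools (horizontal axis, no unit), of each gene of the progenitor list (orange) and of 14 related lists (blue); black bars are list medians and the dashed line is the median of all protein-coding genes. The progenitor genes have a median of 3.30, near the 3.26 of all genes, and the mature adipocyte markers one of 4.80. *Fabp4* is on both the committed preadipocyte and the mature adipocyte list.

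Across the genome the pools were close. Over 123133 bins Pearson's *r* was 0.988 and 96.4% of bins had the same sign; the median gap between pools was 0.44 without regard to sign. At the 10 starts the gaps ran from 0.06 to 0.60. Pool 1 was the more widely spread, with an SD over bins of 3.77 against 3.42. How many contacts lie behind a bin was not analysed here, so the error of an index is the spread between 2 pools and no counting interval is given.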

How the data were processed

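Both kinds of mouse file were used. The authors deposited the A-B index as a signed score per 20-kb bin and pool, and the TADs of the merged map as positions. Per the study's methods, reads were aligned to GRCm39 with BWA in Juicer at a mapping quality of 30, compartments were first set at 100 kb with their sign fixed by the gene density of each chromosome, and TADs came from the insulation score. The number of bins was that of GRCm39 on 19 of 19 chromosomes. Here, gene starts (the outermost of a gene) and bodies came from GENCODE M39, the index was read in their bins with Python 3.11.15, numpy 2.4.6 and pandas 2.3.3, and figures were drawn with matplotlib 3.10.9. The lookup was tested on simulated data. The index was not rescaled. Bins without known sequence, 3200 of 123133, carry values between -0.35 and 0.46 and were kept.

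The members and lists were chosen with earlier results of these data known. Named genes are all members, up to 4 nearest genes of each TAD, up to 4 extremes of each list, genes nearest the ends of compartment stretches (by the mean of the pools; those given are also neighbours or Ly6 genes) and, for *Pdgfra*, the 3 most similar profiles. Outside these rules, *Fabp4* is named because it is on 2 lists and *Bgn* because it had no value. *Kit*, *Kdr*, *Pparg*, *Ebf2*, *Aspn*, *Omd*, *Ogn* and the wider Ly6 cluster were added after their values were seen. Stretches in both pools were added at the same stage. No test was made, since the 2 pools form 1 group. The other 18 samples of the series, from sheep, were not used.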

Additional observations from a re-analysis of the deposited data

How the results depend on the processing

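Of the 10 genes, 9 started in A in each pool alone, over 3 bins in place of 1 and in the bin of the gene's end. The same held with the chromosome's median subtracted. The canonical start (added after seeing the data) lies in the same bin for all 10, so that check could not give another count. With the genome-wide median of each pool subtracted, 10 started in A, since *Dpp4* moved from -0.14 to 0.13. That subtraction raised every gene, and the share of all genes in A after it was not computed. The median start index of 3.30 became 3.68 with the chromosome's median subtracted and 3.58 with the genome-wide one. The median of 3.26 over all genes was not recomputed after either subtraction, so these 2 values cannot be set beside it. Over single pools the median of the members was 3.16 and 3.53. The count over the body was 9 in each pool alone and after either subtraction. The median of the surroundings, 2.40, became 2.04 over 1 Mb on either side. The start stood above its surroundings in 7 genes, in 5 over 250 kb and in 8 over 1 Mb, and in 8 in each pool alone. Over all genes this share, 62.1%, was computed only for 500 kb and both pools. The number of starts within 20, 40 or 60 kb of a TAD end was 0. Of 50 start values of single genes under the alternatives that used both pools, 21 moved by more than the SD between pools, and 1 of them changed sign. The values of the 10 genes at the canonical start are among the 50 and could not move. With 2 pools an SD is itself uncertain. No paired analysis was possible because the mouse libraries form 1 group.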
